A study of Mus musculus with 15 samples.

Results

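The 45 genes described here encode the machinery that copies DNA and supplies its building blocks. They were taken by symbol from a fixed list and read through the probe annotation of the array. Of the 45 genes, 42 had a probe that carries 1 gene symbol, and Gins1, Gins2 and Rfc3 had none. A probe was kept when its signal stood above the negative control beads (detection p under 0.05) on every one of the 3 arrays of some group, and the brightest kept probe on average stood for its gene. This left 36 of the 45 genes, among 6838 genes tested in all. Of the 6 genes with a probe that was not kept, Orc1, Gmnn, Pola1 and Pole2 were detected on 0 of 15 arrays, Prim1 on 1 and Orc2 on at most 3. Of the 36 genes tested, 26 were detected on all 15 arrays.

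The arrays were 15 single-colour Illumina mouse bead arrays of thymic cells from mice 4 weeks old, 3 for each of 5 groups. All mice carried floxed Dicer alleles (Dicer lox/lox). The wild-type (WT) mice lacked the Cre transgene (CD4-Cre -/-), and the knock-out (KO) mice carried it (CD4-Cre +/-), so that Dicer, the RNase that cuts microRNA precursors, is deleted in thymocytes that have switched on CD4. Invariant NKT (iNKT) cells, T cells that recognise lipids on CD1d, were sorted as HSA low, TCRβ int cells that bound the CD1d tetramer. In WT mice they were divided into stage 1-2, which was NK1.1 negative with CD44 high or low, and stage 3, which was NK1.1 positive and CD44 high. The KO iNKT sort used no stage markers, and conventional T cells of both genotypes were HSA low, TCRβ positive and negative for the tetramer. Whether the 3 arrays of a group represent separate animals is not stated in the labels, so p-values measure the spread between these arrays, which may be technical.

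DNA is copied in S phase. The origin recognition complex, Cdc6 and Cdt1 load the MCM2-7 helicase at origins in G1, and Mcm10, Cdc45 and GINS turn it into the active helicase at the start of S phase. Polymerase alpha-primase lays primers, the clamp Pcna, loaded by replication factor C, holds polymerases delta and epsilon on DNA, and Fen1 and Lig1 finish the lagging strand. Ribonucleotide reductase, thymidylate synthase and thymidine kinase supply deoxynucleotides, and Uhrf1 with Dnmt1 copies CpG methylation onto the new strand. Many of these genes are targets of E2F transcription factors, which Rb family proteins hold in check outside the cycle. In the thymus, young iNKT cells are known to divide before they acquire NK1.1.

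Because the genes are known E2F targets, their promoter windows were searched for 4 forms of the E2F motif, TTTCCCGC, TTTCGCGC, TTTGCCGC and TTTGGCGC, on both strands. RefSeq windows (GRCm38.p6) of 250 bases before to 50 bases after each listed start were at hand for 37 of the 45 genes, 47 windows in all. The motif lay in 16 of these 47 windows (34.0%), belonging to 16 genes, against 744 of 32851 windows of all genes (2.26%). With only the bases before the start, the shares were 19.1% and 1.86%. The CCAAT box (CCAAT, both strands) was in 61.7% of the windows and in 37.4% of all windows, and the cell-cycle homology region CHR (TTTGAA, both strands), which is known from mitotic promoters, in 12.8% and 17.9%. The stretches below, all upstream of the start, are examples of E2F matches in helicase, licensing and methylation genes. Upstream matches of Orc1, Pola1, Rfc3 and Dnmt1 and a second stretch of Mcm6 are not shown. Capitals mark the matches. The 12 capital bases of Mcm5 and of Mcm6 are each 2 overlapping matches on opposite strands, and the Uhrf1 stretch belongs to one of its 2 listed starts.
Mcm5, chr8:75109316-75109407, plus strand: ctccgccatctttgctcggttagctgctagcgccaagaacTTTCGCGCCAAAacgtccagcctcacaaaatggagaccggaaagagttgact
Mcm6, chr1:128359764-128359855, minus strand: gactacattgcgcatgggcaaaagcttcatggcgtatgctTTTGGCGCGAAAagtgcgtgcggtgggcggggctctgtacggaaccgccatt
Mcm7, chr5:138172001-138172088, minus strand: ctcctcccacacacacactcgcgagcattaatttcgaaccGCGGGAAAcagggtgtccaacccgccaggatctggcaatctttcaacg
Cdc6, chr11:98907973-98908060, plus strand: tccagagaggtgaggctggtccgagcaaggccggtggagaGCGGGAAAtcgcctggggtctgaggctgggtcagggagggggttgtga
Uhrf1, chr17:56304088-56304175, plus strand: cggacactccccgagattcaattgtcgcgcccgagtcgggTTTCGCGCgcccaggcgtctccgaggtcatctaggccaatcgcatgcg

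Levels below are log2 intensities after background correction, with 16 added, and quantile normalization. A difference of 1 is a doubling, which is understated for dim probes, and levels of different probes are not compared. The share of probes detected ran from 29.2% to 40.8% over the arrays, and the number of arrays limits the precision. The probe for Dicer1 read 5.94 to 6.60 on WT stage 1-2 arrays, 6.62 to 7.60 on WT stage 3 arrays, 6.21 to 6.48 on KO iNKT arrays, 6.30 to 6.59 on WT T arrays and 6.12 to 6.60 on KO T arrays; its position relative to the floxed exons is not given in the sources used here, so it checks no label. All 7 T lineage genes tested were detected on all arrays, with a mean log2 intensity of 9.67 to 10.3 in stage 1-2, 10.6 to 10.7 in stage 3, 9.44 to 9.69 in KO iNKT cells and 11.2 to 11.4 in T cells. Of the genes of NK1.1 positive iNKT cells, 8 of 8 (NK receptors, Tbx21 and others) were called higher in stage 3 than in stage 1-2. Genes of other cells were present too. The mean log2 intensity of 10 granulocyte genes, led by S100a8 and S100a9, was 8.78 to 9.58 in stage 1-2, 5.14 to 6.26 in stage 3, 11.7, 11.01 and 8.46 on the KO iNKT arrays and 4.43 to 4.51 in T cells, where 8 of the 10 were detected on no array of the WT group and 8 on no array of the KO group. The mean of 7 macrophage, monocyte and dendritic cell genes was 8.47 to 9.68 in stage 1-2, 6.53 to 7.34 in stage 3, 9.91 to 10.7 in KO iNKT and 5.003 to 5.18 in T cells. For Cd79b of B cells together with Cd74, H2-Aa and H2-Ab1, which belong to the MHC class II pathway and are also expressed by dendritic cells and macrophages, it was 8.73 to 10.3, 5.78 to 6.67, 9.16 to 10.7 and 4.60 to 5.12 in the same order. In such bulk samples, fewer cells of a type and less RNA per cell cannot be told apart.

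The first comparison asks how the genes differ between the stages of WT iNKT cells. Replication genes were lower in stage 3: 24 of 36 fell and 0 rose, with falls of 1.56-fold to 5.47-fold, and 34 of the 36 differences were below 0. The largest falls were those of Uhrf1, the reader of hemimethylated CpG sites, and Tyms, thymidylate synthase. The test was limma's moderated test with Benjamini-Hochberg adjustment over 6838 genes and a threshold of adjusted p under 0.05, which called 10.9% of all genes lower and 9.05% higher. The median difference of the 36 genes was -0.96, and that of all genes was -0.0017. Of the 24 genes that fell, 23 had no overlap between the arrays of the stages. The like share among all called genes was not counted, so this adds nothing to the calls. The markers of other cells moved with this difference: 7 of 10 granulocyte genes, 6 of 7 macrophage and dendritic cell genes, 4 of 4 genes of the B cell and MHC class II list and 2 of 6 of double-positive thymocytes were called lower in stage 3, and 3 of 7 T lineage genes were called higher. Their part in it was not tested. With each of the 6 arrays of these groups left out in turn, 16 of the 24 passed every time, and Orc6, Cdc6, Pola2, Prim2, Rfc1, Rfc2, Rfc5 and Rrm2 did not. When the arrays were scaled to equal medians instead of quantile normalized, 2 of the 36 genes were called lower, Mcm10 and Uhrf1, and 90 of all 6838 genes were called in either direction.

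**Figure D1:**
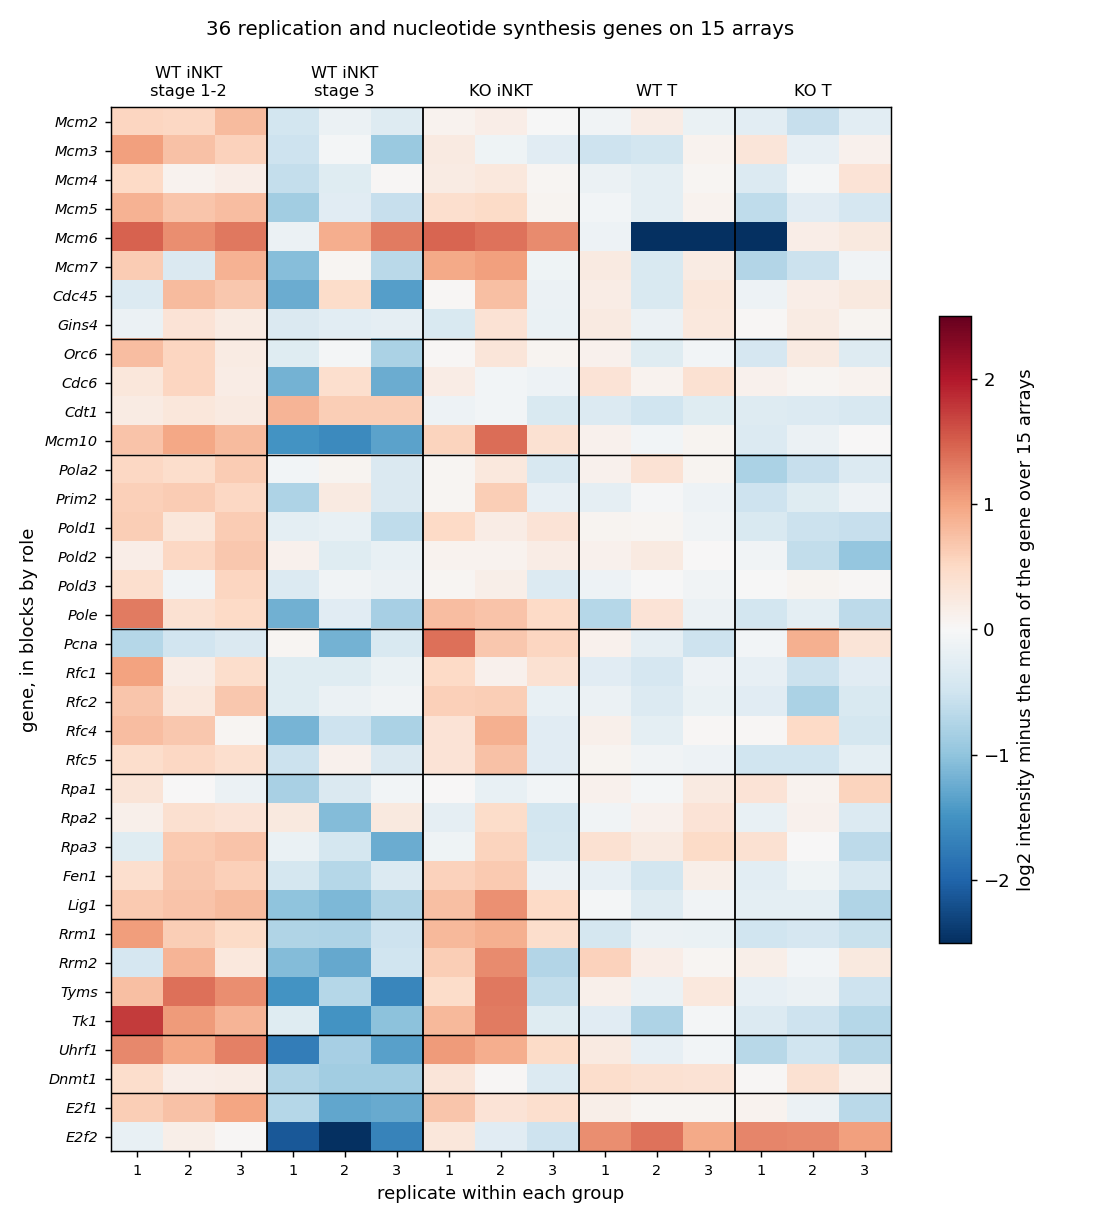
Log2 intensity of each of the 36 genes on the 15 arrays (columns, in groups of 3), shown as the difference from the gene's own mean over the arrays; the colour scale ends at 2.5 each way and the horizontal lines separate roles. Most rows are red in stage 1-2 and in KO iNKT replicates 1 and 2 and blue in stage 3, while Cdt1, Pcna, Mcm6 and E2f2 have patterns of their own.

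Of the helicase genes, 3 of 8 fell: Mcm2, Mcm3 and Mcm5, subunits of the ring that unwinds DNA. Mcm5 read 10.48, 10.31 and 10.37 in stage 1-2, 8.74, 9.33 and 9.04 in stage 3, and 10.02, 10.08 and 9.68 in KO iNKT cells. For Mcm5, WT T arrays read 9.53, 9.36 and 9.70 and KO T arrays 8.98, 9.33 and 9.19. The 3 stage 1-2 arrays of Mcm5 were the highest of all 15, and stage 3 was lower by 2.55-fold (log2 -1.35 ± 0.20 SE, n = 3 per group, limma adjusted p = 0.000159). Mcm3 read 7.61, 7.30 and 7.14 in stage 1-2, 6.06, 6.53 and 5.64 in stage 3, and 6.80, 6.47 and 6.29 in KO iNKT cells. For Mcm3, WT T arrays read 6.06, 6.12 and 6.66 and KO T arrays 6.88, 6.37 and 6.68. The Mcm3 arrays of stage 1-2 lay above those of every other group, by 1.27 ± 0.25 over stage 3 (limma adjusted p = 0.00186). Mcm2 fell by 0.93 ± 0.19. Mcm4, Mcm6, Mcm7, Cdc45 and Gins4 had differences of -0.54, -0.63, -0.94, -1.10 and -0.41 and did not pass, Cdc45 with an adjusted p of 0.0696 by limma.

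Of the licensing and initiation genes, 3 of 4 fell. Mcm10, a factor that helps to activate the loaded helicase, read 6.97, 7.23 and 7.07 in stage 1-2, 4.78, 4.67 and 4.92 in stage 3, and 6.82, 7.66 and 6.64 in KO iNKT cells. For Mcm10, WT T arrays read 6.37, 6.19 and 6.33 and KO T arrays 5.93, 6.13 and 6.28. The stage 3 arrays were below all other 12, and only 1 of them detected the probe; the difference from stage 1-2 was 4.93-fold (log2 -2.30 ± 0.23, limma adjusted p = 3.61e-06). Orc6, a subunit of the origin recognition complex, read 8.03, 7.80 and 7.46 in stage 1-2, 6.95, 7.22 and 6.46 in stage 3 and 7.28, 7.57 and 7.33 in KO iNKT cells. For Orc6, WT T arrays read 7.37, 6.97 and 7.20 and KO T arrays 6.83, 7.48 and 6.94. The Orc6 arrays of the 2 WT stages did not overlap, with a difference of -0.89 ± 0.24 (limma adjusted p = 0.0152). Cdc6, a helicase loader, was lower by 1.01 ± 0.32 (limma adjusted p = 0.0337), but stage 3 replicate 2 read 6.17, inside the stage 1-2 range of 5.94 to 6.30.

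Cdt1, the other loader of the helicase, did not move with these genes. It read 9.07, 9.15 and 9.08 in stage 1-2, 9.70, 9.48 and 9.48 in stage 3 and 8.72, 8.78 and 8.48 in KO iNKT cells. In T cells it read 8.52, 8.35 and 8.56 in WT and 8.54, 8.52 and 8.45 in KO. The stage 3 arrays were the highest of all 15, although the difference of 0.45 ± 0.17 from stage 1-2 did not pass (limma adjusted p = 0.0753); it passed with no detection filter (0.0175), without background correction (0.0075) and in the authors' normalized table (0.00808). Stage 3 was higher than WT T cells by 1.08 ± 0.17 (limma adjusted p = 0.000194).

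Of the polymerase and primase genes, 4 of 6 fell. Pole, the catalytic subunit of polymerase epsilon, read 7.04, 6.12 and 6.24 in stage 1-2, 4.53, 5.45 and 4.90 in stage 3 and 6.51, 6.46 and 6.23 in KO iNKT cells. For Pole, WT T arrays read 5.02, 6.09 and 5.60 and KO T arrays 5.28, 5.49 and 5.08. The stages did not overlap, with a difference of -1.50 ± 0.30 (limma adjusted p = 0.00183), and 1 of 3 stage 3 arrays detected the probe. Pold1, the catalytic subunit of polymerase delta, read 9.59, 9.26 and 9.61 in stage 1-2, 8.73, 8.78 and 8.34 in stage 3 and 9.46, 9.15 and 9.31 in KO iNKT cells. For Pold1, WT T arrays read 9.05, 9.02 and 8.88 and KO T arrays 8.58, 8.45 and 8.40. All 6 arrays of stage 1-2 and KO iNKT cells lay above the other 9, and stage 3 was lower than stage 1-2 by 0.87 ± 0.19 (limma adjusted p = 0.00367). Pola2 and Prim2, of the polymerase alpha-primase complex, fell by 0.64 and 0.90, and Pold2 and Pold3, at -0.58 and -0.48, did not pass.

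Of the clamp and clamp loader genes, 4 of 5 fell, and those 4 are subunits of replication factor C. Rfc4 read 7.58, 7.49 and 6.86 in stage 1-2, 5.65, 6.30 and 6.02 in stage 3 and 7.15, 7.69 and 6.52 in KO iNKT cells. For Rfc4, WT T arrays read 6.94, 6.56 and 6.84 and KO T arrays 6.84, 7.30 and 6.37. The stage 3 arrays were below all other 12, by 1.32 ± 0.30 against stage 1-2 (limma adjusted p = 0.00545). A dimmer Rfc4 probe, detected on 10 arrays, gave -0.22 (limma adjusted p over all kept probes 0.534), so this call rests on the brighter probe. Rfc1, the large subunit, read 8.37, 7.57 and 7.82 in stage 1-2, 7.06, 7.07 and 7.21 in stage 3 and 7.88, 7.48 and 7.75 in KO iNKT cells. For Rfc1, WT T arrays read 7.09, 6.95 and 7.24 and KO T arrays 7.17, 6.84 and 7.10. Stage 3 and T cells overlapped at the lower level, and stage 3 was below stage 1-2 by 0.81 ± 0.22 (limma adjusted p = 0.0143). Rfc2 and Rfc5 fell by 0.72 each.

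Of the genes for single-strand binding and Okazaki fragment joining, the joining enzymes Fen1 and Lig1 fell, and the 3 subunits of replication protein A did not pass. Lig1, the replicative DNA ligase, read 7.69, 7.76 and 7.83 in stage 1-2, 6.03, 5.93 and 6.29 in stage 3 and 7.79, 8.19 and 7.55 in KO iNKT cells. For Lig1, WT T arrays read 6.99, 6.72 and 6.96 and KO T arrays 6.80, 6.80 and 6.30. Stage 3 was lower than stage 1-2 by 1.68 ± 0.21, or 3.20-fold (limma adjusted p = 3.35e-05), and its arrays were below all others. Fen1, the flap nuclease, read 8.68, 8.93 and 8.85 in stage 1-2, 7.83, 7.56 and 7.92 in stage 3 and 8.84, 8.93 and 8.12 in KO iNKT cells. For Fen1, WT T arrays read 8.06, 7.81 and 8.40 and KO T arrays 7.995, 8.15 and 7.86. The difference between stages was -1.06 ± 0.23 without overlap (limma adjusted p = 0.00368). Rpa1, Rpa2 and Rpa3 had differences of -0.47, -0.49 and -0.97, the last with an adjusted p of 0.0567 by limma.

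All 4 genes of deoxynucleotide synthesis fell. Rrm1, the large subunit of ribonucleotide reductase, read 8.14, 7.72 and 7.59 in stage 1-2, 6.35, 6.34 and 6.58 in stage 3 and 7.92, 8.0 and 7.54 in KO iNKT cells. For Rrm1, WT T arrays read 6.67, 6.95 and 6.94 and KO T arrays 6.61, 6.68 and 6.55. Stage 1-2 and KO iNKT cells were above all other arrays, and stage 3 was lower than stage 1-2 by 1.39 ± 0.20 (limma adjusted p = 0.000119). Tyms read 8.46, 9.10 and 8.88 in stage 1-2, 6.23, 7.004 and 6.09 in stage 3 and 8.17, 9.03 and 7.09 in KO iNKT cells. For Tyms, WT T arrays read 7.85, 7.57 and 7.98 and KO T arrays 7.52, 7.58 and 7.20. Stage 3 lay below all others, 5.19-fold below stage 1-2 (log2 -2.37 ± 0.36, limma adjusted p = 0.000202); a dimmer probe gave -1.90, and the dimmest, detected on 8 of 15 arrays, -0.40. Tk1, thymidine kinase of the salvage route, read 8.02, 7.33 and 7.11 in stage 1-2, 5.97, 4.78 and 5.25 in stage 3 and 7.09, 7.56 and 5.97 in KO iNKT cells. For Tk1, WT T arrays read 5.998, 5.51 and 6.22 and KO T arrays 5.94, 5.76 and 5.57. Stage 1-2 was above stage 3 and above T cells without overlap, and the stage difference was -2.15 ± 0.37 (limma adjusted p = 0.000551). Rrm2, the small subunit of the reductase, fell by 1.17 ± 0.39.

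Both maintenance methylation genes and both E2F genes fell as well. Uhrf1 read 10.14, 9.902 and 10.19 in stage 1-2, 7.20, 8.10 and 7.57 in stage 3 and 10, 9.84 and 9.42 in KO iNKT cells. For Uhrf1, WT T arrays read 9.16, 8.72 and 8.86 and KO T arrays 8.25, 8.43 and 8.23. The arrays of stage 1-2 and KO iNKT cells were above all T cell arrays and those above stage 3, which was 5.47-fold below stage 1-2 (log2 -2.45 ± 0.23, limma adjusted p = 2.08e-06). Dnmt1, the maintenance methyltransferase, read 8.33, 8.06 and 8.08 in stage 1-2, 7.13, 7.02 and 7.03 in stage 3 and 8.20, 7.92 and 7.55 in KO iNKT cells. For Dnmt1, WT T arrays read 8.32, 8.27 and 8.25 and KO T arrays 7.93, 8.27 and 8.01. Only stage 3 stood apart for Dnmt1, below stage 1-2 by 1.096 ± 0.20 (limma adjusted p = 0.000805).

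E2f1, an activator of S phase genes, read 7.29, 7.39 and 7.65 in stage 1-2, 5.95, 5.36 and 5.40 in stage 3 and 7.37, 7.001 and 7.09 in KO iNKT cells. For E2f1, WT T arrays read 6.81, 6.72 and 6.71 and KO T arrays 6.75, 6.51 and 5.99. Stage 3 was below all other arrays, and lower than stage 1-2 by 1.88 ± 0.23 (limma adjusted p = 2.19e-05). E2f2, a second activator, read 7.05, 7.40 and 7.28 in stage 1-2, 5.13, 4.63 and 5.58 in stage 3 and 7.54, 6.97 and 6.72 in KO iNKT cells. For E2f2, WT T arrays read 8.41, 8.60 and 8.20 and KO T arrays 8.47, 8.45 and 8.28. For E2f2 the T cells were highest and stage 3 lowest, with no overlap between these and the other iNKT groups. Stage 3 was lower than stage 1-2 by 2.13 ± 0.25 (limma adjusted p = 1.7e-05), and a second E2f2 probe gave -2.02.

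**Figure D2:**
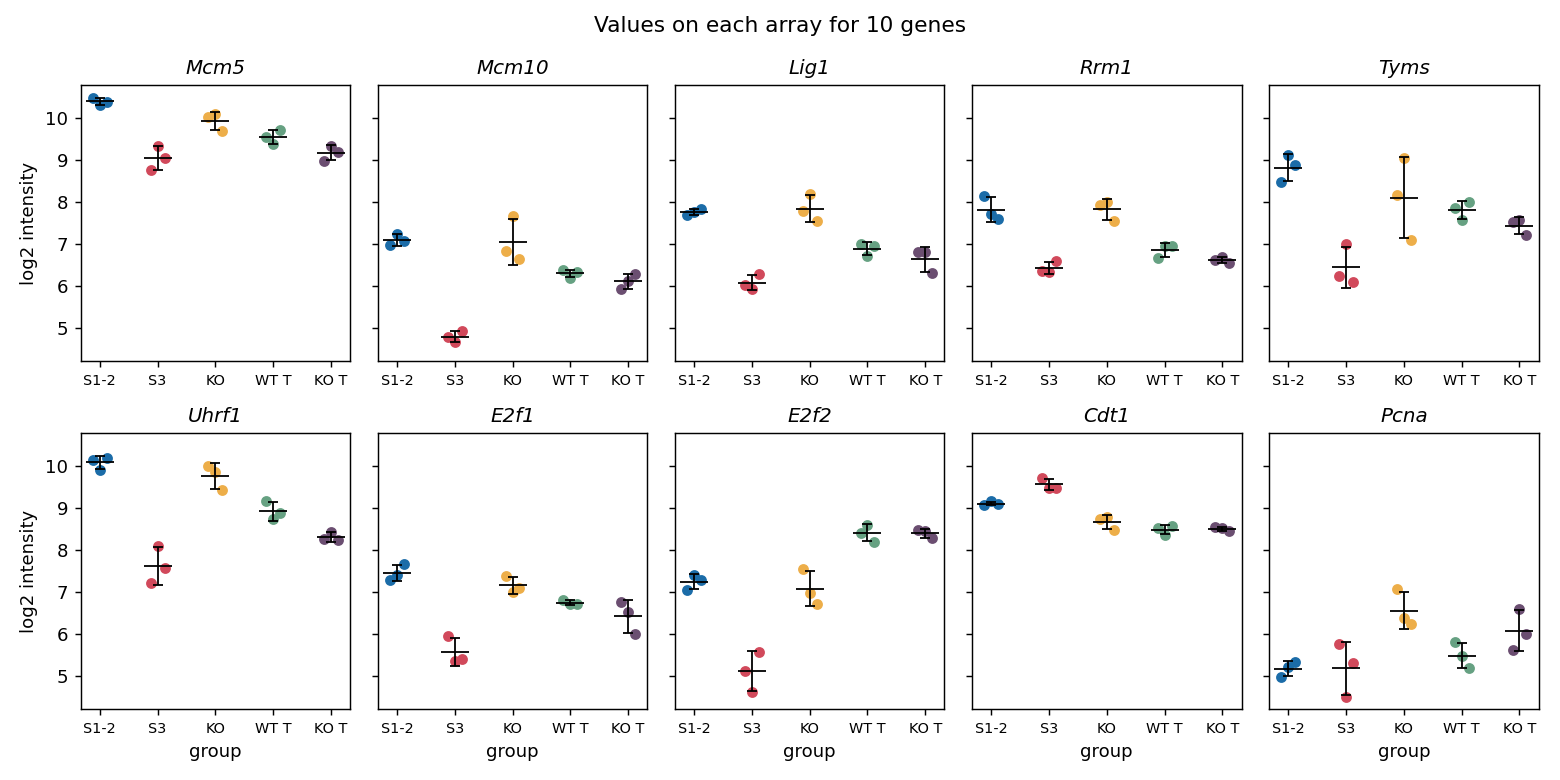
Log2 intensity of 10 genes on each array by group (S1-2, WT iNKT stage 1-2; S3, WT iNKT stage 3; KO, KO iNKT; WT T and KO T, T cells); points are arrays, the long line is the mean and the bars are 1 SD (n = 3). Stage 3 is lowest for Mcm10, Lig1, Uhrf1, E2f1 and E2f2, highest for Cdt1, and T cells are highest for E2f2.

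Among 21 genes that fell in stage 3 and had a promoter window, 8 held an E2F match, against 4 of 10 other tested genes with a window. The stretches printed above come from 3 genes that fell, Mcm5, Cdc6 and Uhrf1, and 2 that did not pass, Mcm6 and Mcm7. A match in these windows thus occurred at a like rate in both sets, and no test was made. Of the 8 genes read by more than 1 kept probe, all 8 had the same sign of the stage difference on each of their probes. The like share among all genes was not counted, and the calls differed more. Dimmer probes of Rfc4, Prim2 and Lig1 gave -0.22, -0.65 and -0.59 (limma adjusted p over all kept probes 0.534, 0.0954 and 0.189). Other dimmer Lig1 probes gave -1.22 and -0.75 (0.0184 and 0.0405), and those of E2f2 and Rrm2 -2.02 and -1.47 (0.000111 and 0.00224).

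Related genes outside the 45 were counted in the same fit. Of 22 other fork and origin factors tested, 9 were lower and 1 higher in stage 3, among them Chaf1a (-1.94 ± 0.23) and Chaf1b (-1.44 ± 0.23), subunits of the chromatin assembly factor, and the checkpoint mediator Clspn (-1.44 ± 0.25). Of 25 other nucleotide supply enzymes 5 were lower and 1 higher, with a fall of 2.06 ± 0.36 for Dctpp1, which breaks down excess dCTP, and falls of 0.91 for both Gart and Ctps, of purine and CTP synthesis. Of 20 other E2F, pocket protein and G1 to S regulators 4 were lower and 0 higher, including cyclin D1 (Ccnd1, -3.15 ± 0.31), Cdk2 (-1.22 ± 0.20) and the E2F partner Tfdp1 (-1.60 ± 0.29). Of 10 mitotic genes 8 were lower, including Birc5 (-2.52 ± 0.35), Top2a (-2.57 ± 0.43) and Cdc20 (-2.06 ± 0.35). The medians of these 4 lists were -0.65, -0.23, -0.30 and -1.76.

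The next comparison asks where KO iNKT cells, sorted without a split by stage, stand against each WT stage. Against WT stage 1-2 cells, 1 gene of 36 rose, Pcna, and 0 fell, while 1.96% of all genes were called higher and 1.05% lower. Pcna, the sliding clamp (probe ILMN_2762026), read 7.06, 6.38 and 6.23 in KO iNKT cells, 4.98, 5.21 and 5.33 in stage 1-2 and 5.75, 4.51 and 5.31 in stage 3. For Pcna, WT T arrays read 5.80, 5.48 and 5.19 and KO T arrays 5.62, 6.59 and 6.01. The KO iNKT arrays were above all WT arrays and overlapped the KO T arrays, and the probe was detected on 2 of 3 arrays of each WT stage. The difference from stage 1-2 was 1.38 ± 0.32 (limma adjusted p = 0.0237). The adjusted p rose to 0.135 without KO iNKT replicate 1, to 0.0759 and 0.0715 without stage 1-2 replicate 1 or 2, and to 0.749 with median scaling.

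The median difference of the 36 genes from stage 1-2 was -0.21, and that of all genes was -0.011. Of the 36 differences, 30 were below 0, against 3493 of 6838 among all genes. This shift of the genes as a set was not tested. Of the 36, 6 had an unadjusted p under 0.05, a share similar to that of all genes (1284 of 6838). The 6 genes with the largest falls in stage 3 differed from stage 1-2 here by -0.32 for Uhrf1 (95% interval -0.82 to 0.17), -0.72 for Tyms (-1.48 to 0.05), -0.05 for Mcm10 (-0.54 to 0.44), -0.61 for Tk1 (-1.39 to 0.16), -0.16 for E2f2 (-0.69 to 0.36) and -0.29 for E2f1 (-0.77 to 0.19). None of these 6 passed in limma, and each interval includes 0. Mcm3 differed by -0.83 (-1.36 to -0.30) and did not pass either (limma adjusted p = 0.0837). Over the 36 genes the lower bound of the interval had a median of -0.77 and the upper bound one of 0.29.

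Against WT stage 3 cells, 18 of 36 genes were higher in KO iNKT cells and 1, Cdt1, was lower, with a median difference of 0.68. Of all genes, 16% were called higher and 14.0% lower. The largest differences were those of Mcm10 at 2.25 ± 0.23 (limma adjusted p = 1.98e-06), Uhrf1 at 2.13 ± 0.23 (3.76e-06) and E2f2 at 1.97 ± 0.25 (1.83e-05). Cdt1 was lower by 0.89 ± 0.17 (limma adjusted p = 0.000961). Mcm7, which did not pass between the WT stages, was higher by 1.18 ± 0.36, and Tk1, Rrm2 and Mcm7 passed although their arrays overlapped. All 10 granulocyte genes, 6 of 7 macrophage genes, 4 of 4 genes of the B cell and MHC class II list and 4 of 6 of double-positive thymocytes were also higher in KO iNKT cells than in stage 3, and 6 of 7 T lineage genes were lower. Against stage 1-2 the counts were 0, 3, 0 and 1 higher and 1 lower. Of the genes of NK1.1 positive iNKT cells, 8 of 8 were lower in KO iNKT cells than in stage 3, and 0 were called against stage 1-2. The mean of these 8 genes was 5.41 to 5.53 on KO iNKT arrays, 5.46 to 5.67 in stage 1-2 and 9.37 to 9.74 in stage 3. The part of other cells and of the mix of stages in these differences was not tested. With median scaling 0 of the 36 replication genes passed in this contrast, and the like count of all genes is not given. The comparison shares its stage 3 arrays with the one between the WT stages. Of the related lists, 8 of 22 fork factors, 6 of 25 nucleotide enzymes, 6 of 20 G1 to S regulators and 8 of 10 mitotic genes were higher than in stage 3, with 3, 2, 1 and 0 lower, and 0 members of these 4 lists passed against stage 1-2.

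**Figure D3:**
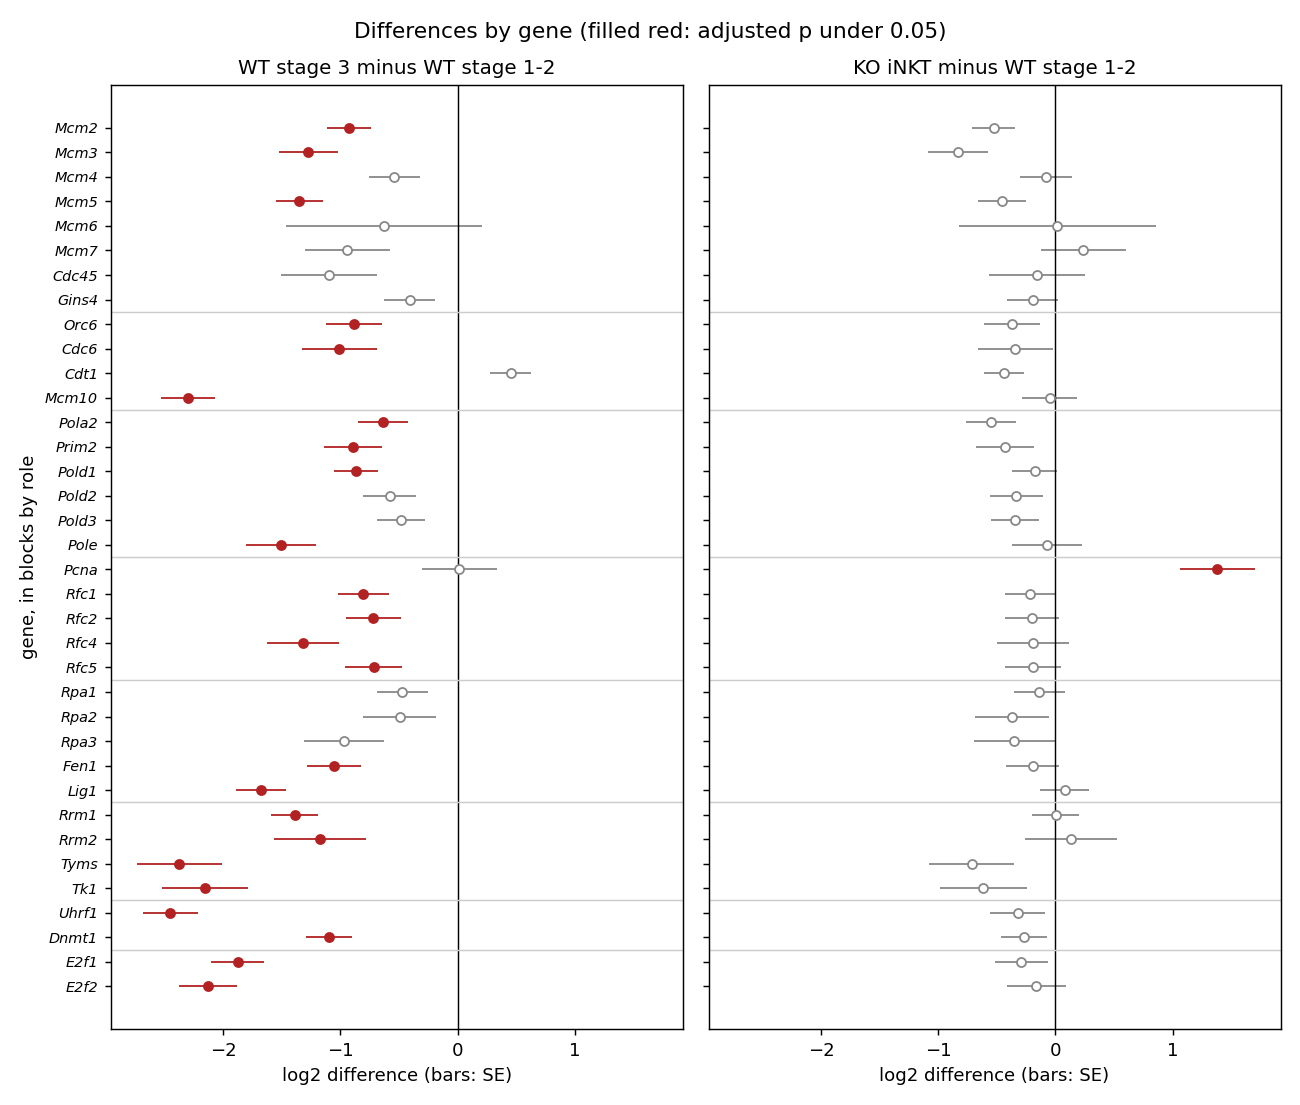
Log2 difference of each gene (points, with bars of 1 SE, n = 3 arrays per group) in WT stage 3 minus WT stage 1-2 (left) and KO iNKT minus WT stage 1-2 (right); filled red points passed at an adjusted p under 0.05. On the left 24 genes lie below 0 and pass, and on the right Pcna alone passes, above 0.

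The mean of KO iNKT cells lay between the means of both WT stages for 29 of 36 genes, above both for 6 and below both for 1, and it was nearer stage 1-2 for 29. Of the 24 genes that fell in stage 3, it lay between for 21 and above both for 3. These 24 were chosen on the same stage arrays, which favours a place between. The like shares among all genes were not counted, so these counts only describe position. The KO iNKT arrays had an SD of 0.293 in the mean over the 36 genes, against 0.0136 to 0.101 in the other groups. That mean was 7.80, 7.93 and 7.37 on KO iNKT replicates 1, 2 and 3, against 7.90 to 7.92 in stage 1-2 and 6.75 to 6.94 in stage 3. Replicate 3 was the lowest KO array for 29 of 36 genes, with values such as 7.09 for Tyms against 8.17 and 9.03. It also had the lowest mean of the granulocyte genes (8.46 against 11.7 and 11.01), of the macrophage genes (9.91 against 10.7 and 10.6) and of the mitotic genes (6.28 against 7.87 and 7.88), and the part of other cells in its position was not tested. Without this array 19 genes were higher than in stage 3 and 1 lower, and against stage 1-2 Pcna alone passed.

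In T cells the Dicer KO genotype came with no called change in these genes. Of 36 genes 0 passed between KO and WT T cells in limma, where 0.146% of all genes were called in either direction. At an unadjusted p under 0.05 there were 4 of 36, a share similar to that of all genes (645 of 6838). These were Pola2, Pold2, Pold1 and Uhrf1, with differences of -0.75, -0.67, -0.51 and -0.61 and adjusted p from 0.246 to 0.440 by limma. With arrays weighted by their quality, Pola2 passed at -0.71 (limma adjusted p = 0.0353). The median difference of the 36 genes between KO and WT T cells was -0.19, and that of all genes was 0.0013. Of the 36 differences, 27 were below 0, against 3406 of 6838 among all genes, and this shift was not tested. The effect of the KO in iNKT cells (against stage 1-2) minus that in T cells passed for 0 of 36 genes (median -0.10), with 0.175% of all genes called. The unadjusted p was under 0.05 for 1 of the 36 and for 590 of all 6838 genes.

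T cells also served to place the iNKT stages. Against WT T cells, stage 1-2 was higher for 16 of 36 genes and lower for 1, E2f2, with 11.5% of all genes called higher and 11.9% lower and a median of 0.56. Stage 3 was higher for 2, Mcm6 and Cdt1, and lower for 9, with 10.5% and 12.5% of all genes called and a median of -0.41. Of 36 genes, 4 took the order stage 1-2, WT T, stage 3 with both steps called: Mcm10, Lig1, Uhrf1 and E2f1. How many of all genes took this order was not counted. For Lig1 the step from stage 1-2 to WT T was called with its brightest probe only. Its dimmer probes, detected on 13, 8 and 7 arrays, gave 0.15, -0.24 and 0.66 (limma adjusted p over all kept probes 0.805, 0.627 and 0.0654). For stage 3 against WT T they gave -1.08, -0.83 and -0.096 (0.0311, 0.0593 and 0.831). For Uhrf1 the steps were 1.16 ± 0.23 (limma adjusted p = 0.00156) and -1.29 ± 0.23 (0.000591) relative to T cells, and for Mcm10 0.79 ± 0.23 (0.0199) and -1.51 ± 0.23 (0.000133). Markers of other cells differed as well. In stage 1-2, 7 of 10 granulocyte, 7 of 7 macrophage and 4 of 4 genes of the B cell and MHC class II list were higher than in WT T cells, and 7 of 7 T lineage genes were lower. In stage 3, the same lists had 2, 4 and 3 genes higher, and 4 T lineage genes and 1 of the B cell and MHC class II list were lower. Their part in these calls was not tested.

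Other genes were ordered differently. E2f2 was lower than WT T cells by 1.16 ± 0.25 in stage 1-2 (limma adjusted p = 0.00265) and by 3.29 ± 0.25 in stage 3 (3.95e-08). Dnmt1 was at 8.16 ± 0.15 (SD, n = 3) in stage 1-2 and 8.28 ± 0.04 in WT T cells, a difference within the spread, and stage 3 was below T cells by 1.22 ± 0.20 (limma adjusted p = 0.00019). Rrm1 and Tk1 were higher in stage 1-2 than in WT T cells by 0.96 ± 0.20 and 1.58 ± 0.37, and stage 3 did not pass against T cells for either. KO iNKT cells against KO T cells gave 16 genes higher and 1, E2f2, lower, with a median of 0.51 and with 15.7% and 17.2% of all genes called. These included Uhrf1 at 1.45 ± 0.23 (limma adjusted p = 0.000142), Rrm1 at 1.21 ± 0.20 (0.00019) and Lig1 at 1.21 ± 0.21 (0.000309). The dimmer Lig1 probes gave 0.37, -0.0015 and 0.13 (limma adjusted p over all kept probes 0.44, 0.998 and 0.716), so this Lig1 call rests on its brightest probe. In the same contrast 10 of 10 granulocyte, 7 of 7 macrophage and 4 of 4 genes of the B cell and MHC class II list were higher and 7 of 7 T lineage genes lower, and their part was not tested. Of 36 genes, 7 were called in none of the 8 contrasts: Mcm4, Cdc45, Gins4, Pold3, Rpa1, Rpa2 and Rpa3. The like share among all genes was not counted. With median scaling, 0 of the 36 genes were called between stage 1-2 and WT T cells. E2f2 was the 1 gene of the 36 called in each of the other 2 comparisons with T cells. The like counts of all genes are not given.

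For Mcm6, the helicase subunit with the largest difference from T cells (3.66 ± 0.84 in stage 1-2, limma adjusted p = 0.00405), the size of the differences and some calls depended on the probe. The probe with the highest mean, ILMN_1217331, read 9.30, 8.98 and 9.14 in stage 1-2, 7.68, 8.73 and 9.13 in stage 3 and 9.28, 9.18 and 9.01 in KO iNKT cells. On the WT T arrays it read 7.70, 4.40 and 4.35, and on the KO T arrays 4.38, 7.98 and 8.07, so that 3 of 6 T cell arrays were at background and 3 were not. On the same 6 arrays the probes ILMN_1233857 and ILMN_2803399 read 7.185 to 7.85 and 6.10 to 7.24. With these, stage 1-2 was above WT T cells by 1.56 and 1.51 (limma adjusted p over all kept probes 0.00106 and 0.000832), and KO iNKT cells above KO T cells by 1.27 and 1.53 (0.00354 and 0.000468), so that both calls were made with each of the 3 probes. Stage 3 differed from WT T cells by 0.71 and 0.13 (0.1 and 0.801). Between the WT stages they gave -0.85 and -1.38 (limma adjusted p 0.0572 and 0.00233), where the first probe gave -0.63 ± 0.84. The call of Mcm6 as higher in stage 3 than in T cells therefore rests on a single probe.

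**Figure D4:**
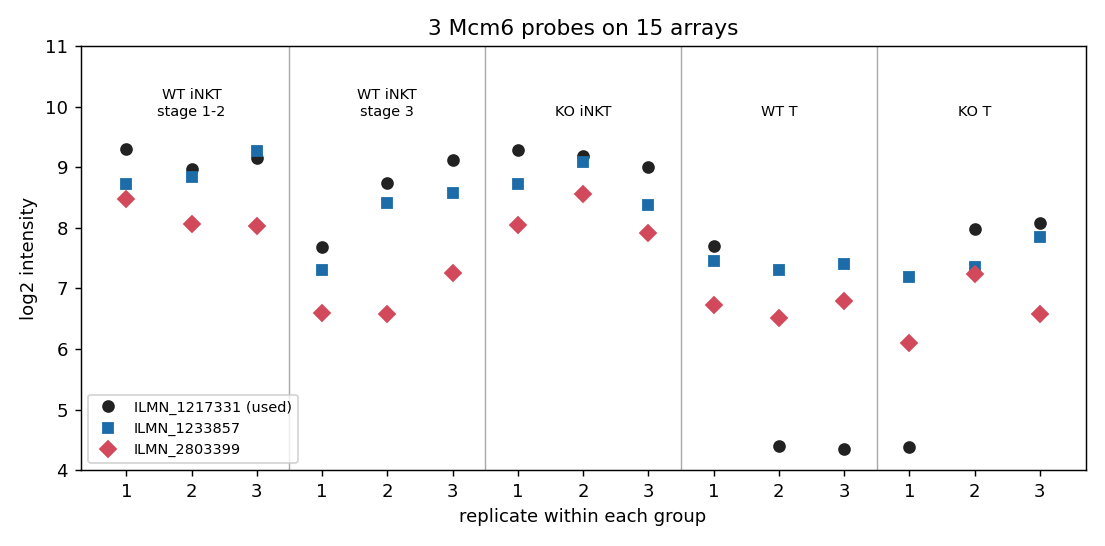
Log2 intensity of the 3 kept Mcm6 probes on each of the 15 arrays, in groups of 3. The probe used (black circles) is at 4.35 to 4.40 on 3 T cell arrays, on which the other 2 probes read 6.10 or more.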

How the data were processed

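Total RNA of sorted cells was amplified and labelled with biotin, per the labels. The authors deposited a table that gives, per probe and array, the signal intensity and its detection p-value, exported from GenomeStudio (no version stated) and not normalized, per the file headers; a second deposited table of normalized intensity values was an alternative. Of 25697 probes, 23978 carry 1 gene symbol in the platform annotation.

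Background correction, quantile normalization and log2 transformation used neqc (offset 16) of limma 3.58.1 in R 4.3.3. Probes were kept if all 3 arrays of any group had a detection p under 0.05. A mean per group was fitted over 15 arrays (10 residual degrees of freedom) with lmFit and eBayes, and p-values, all two-sided, were adjusted by Benjamini-Hochberg over 6838 genes within each of 8 contrasts. The steps were tested on simulated data. Promoter windows and figures used Python 3.11.15, pandas 2.3.3 and matplotlib 3.10.9.

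The genes and lists were chosen with earlier results of these data known. Values on every array are given for the 2 genes of each role with the smallest adjusted p between the WT stages, genes called in a KO contrast with stage 1-2 or in T cells, and the 4 most different between iNKT and T cells (Mcm6, E2f2, Tk1, Mcm10); Cdt1 was added after its values were seen. Up to 3 genes of each other list are named. Replicate numbers were not taken to pair arrays: of 30 same-number pairs of arrays, 3 had deviations correlated above 0.1 (-0.235 to 0.482). Alternatives were other background correction, scaling, filters, probes, variance models and samples, a replicate block, array weights, and each array left out in turn. A slide block was not run, because no slide is named in the file headers.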

Additional observations from a re-analysis of the deposited data

How the results depend on the processing

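Median scaling changed the most: the count of genes called, of 36, went from 24 to 2 between the WT stages, from 1 to 0 for KO iNKT against stage 1-2, from 19 to 0 against stage 3, from 17 to 0 for stage 1-2 against WT T, from 11 to 1 for stage 3 against WT T and from 17 to 1 for KO iNKT against KO T. It put the median difference of all genes at -0.22, -0.43, -0.19, -0.06, -0.30 and -0.66 in these contrasts. Relative to that, the median of the 36 genes stood at -1.02, -0.30, 0.69, 0.51, -0.42 and 0.43. Between the WT stages the calls among all genes fell as well, as given above. For the other counts in this section the like counts of all genes are not given, so a loss of calls is not particular to these genes. Median scaling turned 8 called differences of KO iNKT against KO T: Mcm5 -0.0584, Pold1 -0.0287, Pold2 -0.17, Rfc1 -0.19, Rfc2 -0.0170, Rfc5 -0.13, Fen1 -0.24 and E2f1 -0.0833. With the dimmest probe Tyms turned to 0.0621 for stage 3 against WT T (limma adjusted p = 0.881). For KO iNKT against stage 1-2 the count was 3 with quantile normalization without background correction and with the authors' table, which added Mcm2 and Cdt1 as lower, and 0 with no detection filter or the compared groups alone. Array weights gave 1, Pola2, for KO T against WT T. The share of promoters with an E2F motif was 19.1% before the start. The causes were not tested. Leaving out each array in turn gave 18 to 24 genes between the WT stages, 0 to 1 and 15 to 21 for KO iNKT against stage 1-2 and stage 3, 11 to 13 and 8 to 12 for stage 1-2 and stage 3 against WT T, 8 to 16 for KO iNKT against KO T, and 0 for KO T against WT T and for the difference of the KO effects. The lowest counts against KO T came without KO iNKT replicate 1 (8), KO iNKT replicate 2 (10) and KO T replicate 2 (10), and 11 were called for stage 1-2 without WT T replicate 1 or 2. Of the 24 calls between the WT stages 16 passed in every such fit, and Mcm10 and Uhrf1 in all 16 alternatives. With the replicate number as a block 22 genes were called between the WT stages and 19 for KO iNKT against stage 3, and 2 of 15 arrays correlated best with their own number. Signal over background limits the falls of Mcm10, Pole, Cdc6 and Rrm2, which 1 of 3 stage 3 arrays detected. It also limits those of E2f2 and Tk1, detected on 2 of 3, and the E2f2 difference between stage 3 and WT T cells.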
